A study of Mus musculus with 8 samples.

Results

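The genes described here are 44 genes of DNA replication and nucleotide supply, out of 23432 genes listed in each library of a mouse skin RNA-seq series. They were chosen by name as subunits of the origin recognition complex, the licensing factors, the MCM helicase, the factors that activate it, the replicative polymerases, the clamp and its loader, RPA, the enzymes that finish Okazaki fragments, and 4 enzymes that make deoxynucleotides. The choice was made with earlier results of these data known. All 44 were found in the count tables and all 44 passed the filter on low counts in every comparison, so no member was lost before testing. Polyadenylated RNA was sequenced from 8 libraries, 2 per group. The E16.5 control and E16.5 MOF cKO libraries came from back skin epithelial cells that carry the K14-H2BGFP reporter and were sorted for it by FACS. The P0.5 control and P0.5 Kansl1 cKO libraries came from newborn epidermis lifted off the dermis with dispase, without sorting. MOF (gene name Kat8) is the acetyltransferase of lysine 16 on histone H4, and Kansl1 is a subunit of NSL, one of the complexes in which MOF works. Both deletions were made with Krt14-Cre, which is active in skin epithelium, so other cells on a P0.5 sheet kept Kansl1. The labels number the libraries without naming the animals, and p-values measure only the spread between these libraries.

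DNA replication starts where the origin recognition complex sits on DNA and, with the licensing factors Cdc6 and Cdt1, loads the MCM ring in G1 phase. In S phase Cdc45 and the GINS complex turn the ring into a working helicase, primase and polymerase alpha lay down primers, polymerases epsilon and delta copy the strands, and the PCNA clamp, loaded by RFC, holds the polymerases on DNA. In the epidermis replication belongs mainly to the basal layer, and many of these genes are transcribed under E2F factors as cells leave G1.

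The counts on genes were between 22484018 and 27561688 in the E16.5 libraries and between 9108709 and 19774643 in the P0.5 libraries, and the 44 genes took between 0.131% and 0.431% of them. Values per library are given as CPM, the share of a library's counts scaled to a common size with edgeR's TMM factors within each experiment, and 1 count stood for between 0.0326 and 0.115 CPM. The 6 keratinocyte markers summed to between 29554 and 36848 CPM in the E16.5 libraries and to between 14887 and 16751 CPM in the P0.5 libraries. Counts per gene do not resolve the deleted exons, and neither Kat8 in MOF cKO (log2 fold change -0.14, adjusted p = 0.554) nor Kansl1 in Kansl1 cKO (-0.52, adjusted p = 0.242) was called. In bulk samples fewer cells of a type and less RNA per cell cannot be told apart. A difference is called here where the quasi-likelihood test of edgeR gave an adjusted p under 0.01 and the fold was over 1.5.

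Loss of MOF was examined first. In MOF cKO, 8 of the 44 genes were called lower (Orc3, Mcm6, Mcm10, Gins2, Prim2, Rfc1, Rfc4 and Lig1) and 0 were called higher. Over all 13956 genes tested, 9.59% were called lower and 10.0% higher. The 8 genes came from 6 of the 11 role groups, and each was between 1.54-fold and 2.19-fold lower. In sign, 36 of the 44 were lower, 81.8% against 50.9% of all genes tested, and the median log2 fold change was -0.37 against -0.02. Both MOF cKO libraries lay below both controls for 32 members, where 37.7% of all genes tested did, and above both controls for 5 members, where 34.9% did. At an unadjusted p under 0.05, 23 members were lower and 4 were higher (Orc4, Orc5, Orc6 and Tk1), where 25.1% of all genes tested were lower and 23.7% higher. DESeq2 called 9 members lower and 1 higher, against 11.7% and 12.0% of its genes, and the ones it added were Gins3 and Orc4. The size of the shift depended on scaling: with library size alone the median of all genes moved to -0.32, the calls over all genes turned from 1338 lower and 1395 higher to 2743 lower and 769 higher, and 21 members were called lower.

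**Figure D1:**
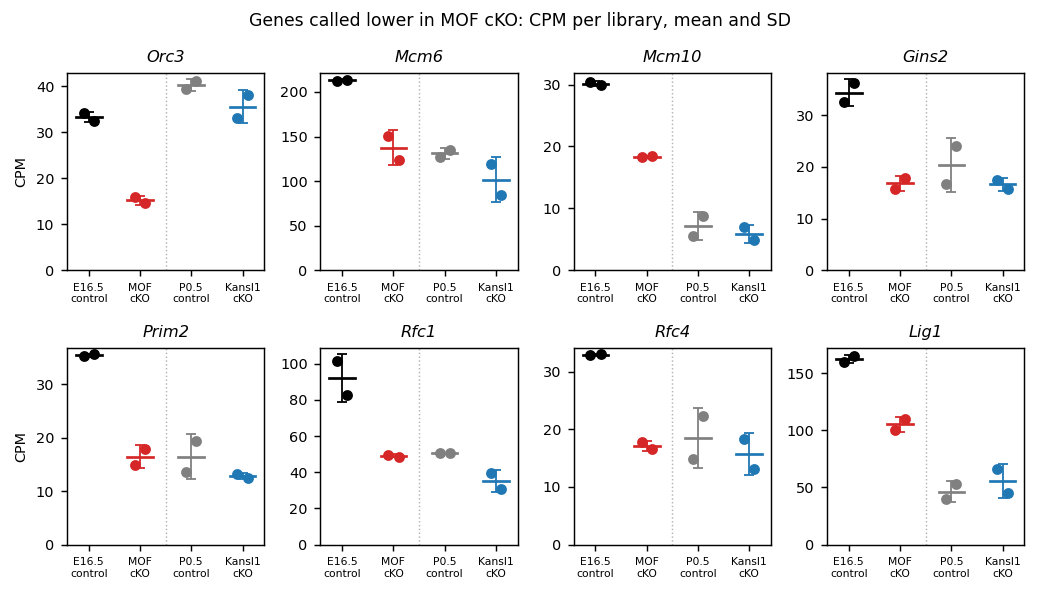
The 8 genes called lower in MOF cKO, each in its own panel with its own axis of CPM from 0. Points are single libraries, horizontal lines are group means and bars are SD (n = 2); the dotted line parts the E16.5 from the P0.5 experiment, which were scaled separately. In each panel both MOF cKO libraries lie below both E16.5 controls, as for Orc3 at 15.9 and 14.5 against 34.1 and 32.5 CPM.

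The origin recognition complex, which marks the sites where replication can start, had subunits on both sides of the control. Orc3 (chr4:34570796-34614944 in mm10) was at 34.1 and 32.5 CPM in the E16.5 controls and at 15.9 and 14.5 CPM in MOF cKO. The groups did not overlap, and its log2 fold change of -1.13 (SE 0.147, adjusted p = 0.00148) was the lowest of the 44. Orc4, a subunit of the same ring, was at 42.8 and 29.5 CPM in the controls and at 71.5 and 58.9 CPM in MOF cKO. Its log2 fold change of 0.85 (SE 0.195, adjusted p = 0.0127) was the highest of the 44 but missed the threshold, and its controls stood farther apart than those of Orc3. Without E16.5 control replicate 1, or without MOF cKO replicate 2, Orc4 was called higher. Orc5 and Orc6 also had both MOF cKO libraries above both controls, with log2 fold changes of 0.34 (adjusted p = 0.0907) and 0.42 (adjusted p = 0.0324), and neither was called. Orc1, the ATPase subunit that varies over the cell cycle, and Orc2 had log2 fold changes of -0.17 and -0.16. The licensing factors were near their control levels: Cdt1 had a log2 fold change of -0.03, and Cdc6, which helps to load the MCM ring, was at 22.4 and 27.0 CPM in control and at 19.1 and 25.1 CPM in MOF cKO. The Cdc6 libraries overlapped between groups (log2 fold change -0.16, SE 0.189, adjusted p = 0.539).

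Of the MCM ring that unwinds DNA, 5 of 6 subunits had both MOF cKO libraries below both controls, where 37.7% of all genes tested did. Of the 6 subunits 1 was called, where 9.59% of all genes tested were called lower. Mcm6 (chr1:128331590-128359664) was at 213 and 214 CPM in control and at 151 and 124 CPM in MOF cKO. The control libraries were nearly equal and the MOF cKO libraries were well below them (log2 fold change -0.63, SE 0.123, adjusted p = 0.0068). Without MOF cKO replicate 2, the lower library, Mcm6 was no longer called. Mcm2 (-0.49, adjusted p = 0.0104) and Mcm5 (-0.44, adjusted p = 0.0146) followed, and their folds were under the threshold. Mcm3 was at -0.28 and Mcm4 at -0.14. Mcm7 was at 180 and 196 CPM in control and at 172 and 215 CPM in MOF cKO, so its groups overlapped. Its log2 fold change of 0.04 took the other sign, -0.26, with library size alone. The subunits are needed in equal number in the ring, and per length of transcript they stood between 44.9 and 65.8 RPKM in the E16.5 controls and between 29.0 (Mcm6) and 60.2 RPKM (Mcm7) in MOF cKO.

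Among the factors that activate the helicase, 2 of 6 were called lower, where 9.59% of all genes tested were. Gins2 (chr8:120578633-120589304), a GINS subunit, was at 32.5 and 36.2 CPM in control and at 15.8 and 17.9 CPM in MOF cKO. The groups lay 2.04-fold apart (log2 fold change -1.03, SE 0.153, adjusted p = 0.00239). Exons of Gse1 on the opposite strand cover 70.7% of the Gins2 exons, and the strand setting of the counting is not given in the sources used here; Gse1 itself had a log2 fold change of 0.01. Mcm10 (chr2:4989714-5012791), which binds the ring as it is activated, was at 30.4 and 29.9 CPM in control and at 18.2 and 18.4 CPM in MOF cKO. Replicates were close in both groups (log2 fold change -0.72, SE 0.141, adjusted p = 0.00712), but Mcm10 was not called in any of the 4 fits that left out 1 library. Gins3, another GINS subunit with low counts, was at 12.0 and 9.78 CPM in control and at 5.17 and 4.91 CPM in MOF cKO. Its difference was nearly that of Orc3 with a wider error (log2 fold change -1.11, SE 0.251, adjusted p = 0.0121), and it was called in 6 of 14 settings but not in this one. Gins1 was at -0.54, Gins4 at -0.12 and Cdc45, which completes the helicase, at 0.17 on the log2 scale, and Cdc45 turned to -0.13 with library size alone.

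The primase and polymerase genes among the members were lower in sign, 9 of 9, where 50.9% of all genes tested were. Of the 9, 1 was called, where 9.59% of all genes tested were called lower. Polymerase subunits outside the members went both ways. Pole3 and Pole4 had log2 fold changes of 0.10 and 0.12, Pold4 had -1.70, and none of them was called. Prim2 (chr1:33453810-33669795), the large subunit of primase, was at 35.3 and 35.7 CPM in control and at 15.0 and 17.95 CPM in MOF cKO. It was 2.15-fold lower with no overlap (log2 fold change -1.11, SE 0.155, adjusted p = 0.00192). The catalytic primase subunit Prim1 was closer to its control level, at -0.37 (adjusted p = 0.158). Pola1, the polymerase alpha catalytic subunit, was at -0.54 (adjusted p = 0.047), and Pola2, its accessory subunit, at -0.55 (adjusted p = 0.0717). Of polymerase epsilon, the catalytic subunit Pole had a log2 fold change of -0.54 (adjusted p = 0.0117). Pole2, its second subunit, was at 23.9 and 23.8 CPM in control and at 15.6 and 14.1 CPM in MOF cKO. The Pole2 groups did not overlap, yet its adjusted p missed the threshold (log2 fold change -0.69, SE 0.158, adjusted p = 0.0127), and it was called in 5 of 14 settings. Of polymerase delta, the catalytic subunit Pold1 was at 93.3 and 114 CPM in control and at 61.0 and 97.8 CPM in MOF cKO. The MOF cKO libraries differed from each other and 1 of them lay among the controls (log2 fold change -0.39, SE 0.219, adjusted p = 0.201). The accessory subunits Pold2 and Pold3 had log2 fold changes of -0.32 and -0.38.

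The loader of the PCNA clamp and the clamp itself were at different sides of the control. Rfc1 (chr5:65261850-65335670), the large loader subunit, was at 101 and 82.9 CPM in control and at 49.7 and 48.6 CPM in MOF cKO. Both MOF cKO libraries were far below the lower control (log2 fold change -0.90, SE 0.134, adjusted p = 0.00238). Rfc4 (chr16:23113943-23127737) was at 32.9 and 33.1 CPM in control and at 17.7 and 16.6 CPM in MOF cKO. It was 1.92-fold lower (log2 fold change -0.95, SE 0.143, adjusted p = 0.00254), while Eif4a2, whose exons on the other strand overlap 13.4% of those of Rfc4, was called higher at 0.70. The other loader subunits Rfc2, Rfc3 and Rfc5 had log2 fold changes of -0.58, -0.14 and -0.52. Wsb2, whose exons on the other strand overlap 15.4% of those of Rfc5, was called higher at 1.54. Lat2 overlaps 19.1% of the Rfc2 exons in the same way and was not called. Pcna, the most abundant of the 44 per length, was at 314 and 323 CPM in control and at 361 and 382 CPM in MOF cKO. Its libraries did not overlap, and its log2 fold change was 0.22 (SE 0.0993, adjusted p = 0.118), or -0.08 with library size alone.

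RPA, which coats single-stranded DNA, had 3 of 3 subunits with both MOF cKO libraries below both controls, where 37.7% of all genes tested did. Of these subunits 0 were called. Rpa2 was at 71.5 and 64.8 CPM in control and at 46.9 and 48.1 CPM in MOF cKO. The fold of Rpa2 was under 1.5 (log2 fold change -0.52, SE 0.117, adjusted p = 0.0118). Rpa1, the DNA-binding subunit, was at -0.34 and the small subunit Rpa3 at -0.27. Lig1 (chr7:13277283-13311433), the ligase that seals Okazaki fragments, was at 160 and 165 CPM in control and at 100 and 110 CPM in MOF cKO. Its groups were well apart (log2 fold change -0.62, SE 0.105, adjusted p = 0.00393), but the call was lost without E16.5 control replicate 2 and without MOF cKO replicate 1. Fen1, the nuclease that trims the fragments, had a log2 fold change of -0.30 (adjusted p = 0.159). Exons of Gm10143 on the opposite strand cover 78.8% of the Fen1 exons, so the unknown strand setting limits this value as it does for Gins2.

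The 4 enzymes of deoxynucleotide supply had no call and a median log2 fold change of -0.04. Tyms, which makes thymidylate, was at 86.5 and 83.6 CPM in control and at 61.0 and 68.3 CPM in MOF cKO. Its MOF cKO libraries were below both controls (log2 fold change -0.40, SE 0.117, adjusted p = 0.0325). Tk1, the thymidine kinase of S phase, was at 116 and 110 CPM in control and at 143 and 134 CPM in MOF cKO. Both libraries were higher (log2 fold change 0.29, adjusted p = 0.064), though the value was -0.02 with library size alone. The ribonucleotide reductase subunits Rrm1 and Rrm2 had log2 fold changes of -0.21 and 0.12.

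**Figure D2:**
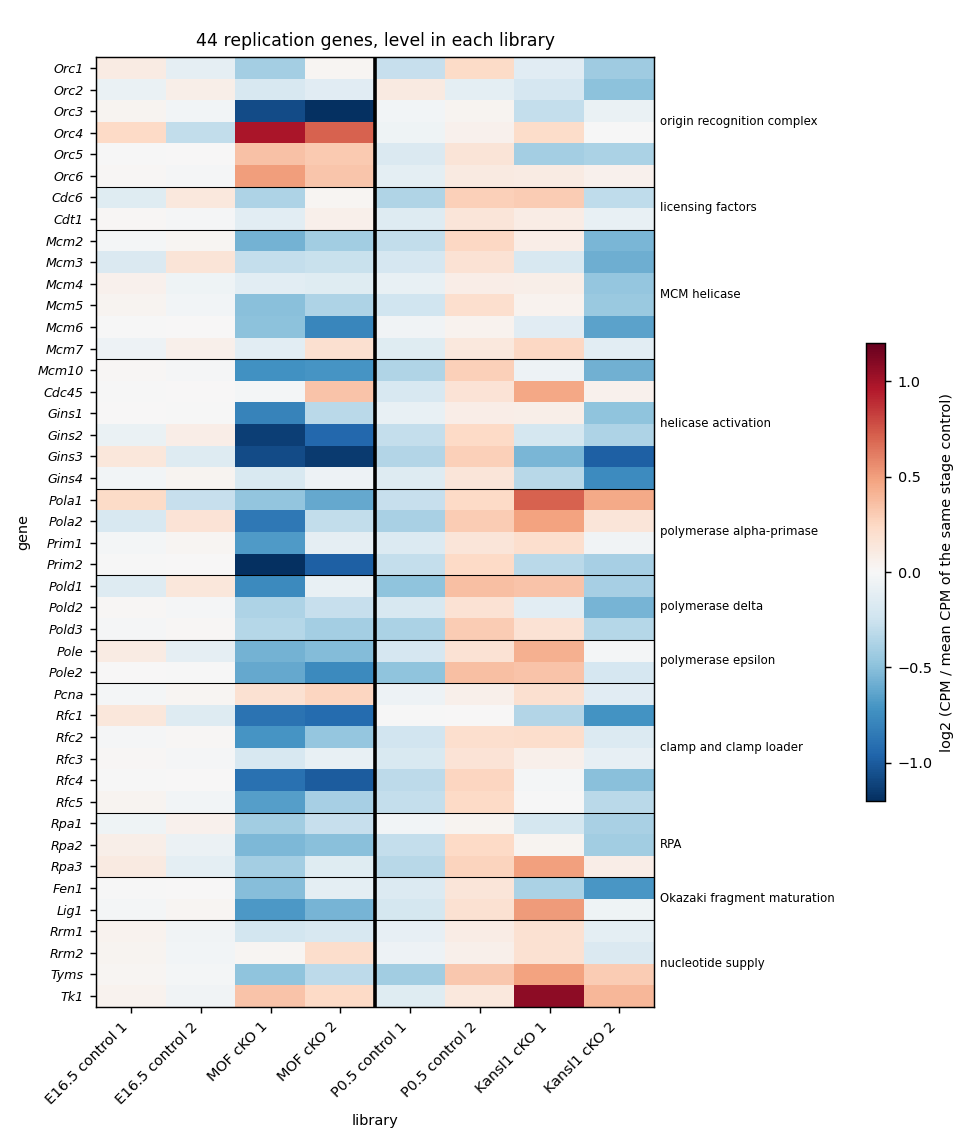
All 44 genes in rows by role group and the 8 libraries in columns. Colour gives the log2 ratio of a library's CPM to the mean CPM of the control group of its own stage (blue lower, red higher). The MOF cKO columns are mostly blue, both MOF cKO libraries lie above both controls for Orc4, Orc5, Orc6, Pcna and Tk1, and within the P0.5 experiment control 2 and Kansl1 cKO 1 are the redder columns.

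Promoter sequences are shown for the 3 called genes with the lowest log2 fold changes that have an entry in the RefSeq promoter table (GRCm38.p6), and for Mcm6, chosen after its values were seen because it is the other called gene that carries E2F letters. Each window runs 5′ to 3′ on the gene's strand, from 250 bases before the annotated start to 50 bases into the transcript. Capitals mark the E2F letters TTTCCCGC or TTTGGCGC and the letters CCAAT, searched on both strands, and no matches overlap in these windows. Orc3 lies at chr4:34614893-34615192, Rfc4 at chr16:23127681-23127980, Rfc1 at chr5:65335590-65335889 and Mcm6 at chr1:128359656-128359955, all on the minus strand.
Orc3: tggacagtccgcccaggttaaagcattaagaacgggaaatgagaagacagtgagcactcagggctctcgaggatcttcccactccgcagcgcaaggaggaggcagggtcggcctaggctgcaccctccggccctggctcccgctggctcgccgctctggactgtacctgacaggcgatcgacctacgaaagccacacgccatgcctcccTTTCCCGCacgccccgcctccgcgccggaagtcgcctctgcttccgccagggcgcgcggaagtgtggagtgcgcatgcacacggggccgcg
Rfc4: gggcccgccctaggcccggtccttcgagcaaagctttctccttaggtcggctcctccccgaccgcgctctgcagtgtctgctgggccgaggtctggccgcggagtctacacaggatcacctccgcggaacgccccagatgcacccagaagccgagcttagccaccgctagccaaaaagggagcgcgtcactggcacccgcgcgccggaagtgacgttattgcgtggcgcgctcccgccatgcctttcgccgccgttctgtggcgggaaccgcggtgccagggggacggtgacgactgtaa
Rfc1: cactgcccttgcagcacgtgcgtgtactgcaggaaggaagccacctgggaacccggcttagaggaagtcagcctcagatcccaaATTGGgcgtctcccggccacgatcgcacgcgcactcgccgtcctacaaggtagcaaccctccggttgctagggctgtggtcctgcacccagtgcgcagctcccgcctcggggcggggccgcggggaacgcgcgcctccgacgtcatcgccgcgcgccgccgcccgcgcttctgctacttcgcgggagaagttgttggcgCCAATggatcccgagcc
Mcm6: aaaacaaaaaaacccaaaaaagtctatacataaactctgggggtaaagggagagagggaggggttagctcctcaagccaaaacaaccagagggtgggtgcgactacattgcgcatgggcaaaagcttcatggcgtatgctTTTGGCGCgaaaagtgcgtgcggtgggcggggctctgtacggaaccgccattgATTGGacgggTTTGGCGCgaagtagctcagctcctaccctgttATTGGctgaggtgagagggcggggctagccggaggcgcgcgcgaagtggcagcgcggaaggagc
The Orc3 window holds 1 E2F match, 41 bases before the start, and Rfc4, with a fold nearly as large, holds no match to either motif. Mcm6 holds E2F letters 110 and 47 bases before the start, with CCAAT letters (read as ATTGG) 57 and 14 bases before it. Of the 37 members with an entry, 13 held the E2F letters (35.1%), against 1.80% of the 27025 genes in the table. CCAAT was in the windows of 23 of 37 members (62.2%), against 41.1% of all genes. The members with E2F letters had a median log2 fold change in MOF cKO of -0.39 (13 genes, 2 called lower) and the members without them -0.31 (24 genes, 4 called lower). A match describes the letters in the window only.

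Other genes of the pathway were read from lists that, like the members, were chosen with earlier results of these data known. Of 32 other replication factors, 5 were called lower in MOF cKO and 0 higher, with a median log2 fold change of -0.31, where 9.59% of all genes were called lower. They were Mcm8 (-1.35) and Mcm9 (-1.16), which form a helicase used in recombination repair, the checkpoint mediator Clspn (-0.86), the clamp unloader Atad5 (-0.81) and the histone chaperone Asf1b (-0.79). At an unadjusted p under 0.05, 16 of the 32 were lower and 1 was higher, against 25.1% and 23.7% of all genes. Of 32 other nucleotide synthesis genes, 3 were called lower and 3 higher, 9.38% each way, which is near the shares of all genes (9.59% and 10.0%). Ctps2, a CTP synthase, was at -1.47, the dNTP hydrolase Samhd1 at -1.07 and Dhodh, an enzyme of pyrimidine synthesis, at -0.90. The nucleoside diphosphate kinases Nme2 and Nme1 were at 1.02 and 0.73, and the other CTP synthase, Ctps, at 0.70.

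The 28 regulators of the G1 to S transition held 3 genes called lower (10.7%) and 2 called higher (7.14%), near the shares of all genes. Tfdp2, a partner of E2F factors, was at 51.2 and 43.7 CPM in control and at 9.09 and 8.72 CPM in MOF cKO. That log2 fold change of -2.41 (SE 0.158) was larger than any among the 44 replication genes. Rbl2, a pocket protein, was at -1.48 and Cdk2, the kinase of S phase entry, at -0.62. Cdkn1a, the CDK inhibitor p21, was at 88.4 and 126 CPM in control and at 438 and 611 CPM in MOF cKO. It was 4.90-fold higher, the largest rise of the list, and Myc was also called higher at 1.15. E2f1 itself was at 40.4 and 51.1 CPM in control and at 32.9 and 43.0 CPM in MOF cKO, with overlapping groups and a log2 fold change of -0.27 (adjusted p = 0.269).

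Of 10 proliferation markers, 1 was called lower in MOF cKO, the checkpoint kinase Bub1 (-0.68), and 0 were called higher. That is 10% called lower, near the 9.59% of all genes tested. In sign 6 were lower and 4 higher (Ube2c at 0.41, Birc5 at 0.20, Cdk1 at 0.18 and Plk1 at 0.04). The median log2 fold change was -0.06 against -0.02 over all genes. Mki67 was at 636 and 441 CPM in control and at 394 and 307 CPM in MOF cKO (log2 fold change -0.62, adjusted p = 0.0392), and Top2a had a log2 fold change of -0.36 (adjusted p = 0.069). The summed CPM of the 44 replication genes was 3878 and 3869 in the controls, against 3147 and 3377 after MOF loss, with no overlap. The proliferation markers summed to 2095 and 1701 in control and to 1564 and 1609 in MOF cKO. Markers of other cells moved in the same libraries. The 4 suprabasal markers were 4 of 4 higher in sign with 3 called, where 10.0% of all genes tested were called higher. They summed to 3808 and 3074 CPM in control and to 8423 and 9369 CPM in MOF cKO. The macrophage markers were 9 of 9 higher in sign with 7 called, against the same 10.0%. These markers summed to 19.4 and 44.3 CPM in control and to 93.6 and 123 CPM in MOF cKO, with Tyrobp at 0 counts in 1 control. Of the fibroblast markers 0 of 6 were called. At an unadjusted p under 0.05, 5 were higher and 1, Dcn (-0.30), was lower, against 23.7% and 25.1% of all genes tested. The list had a median log2 fold change of 1.07, and its sums were 915 and 1549 CPM in control and 1537 and 2146 CPM in MOF cKO. Melanocyte markers summed to 17.4 and 44.2 CPM and to 15.2 and 59.2 CPM with 0 of 4 called, and endothelial markers to between 5.51 and 19.2 CPM with 1 of 3 called. The part of these markers in the lower replication genes was not tested.

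**Figure D3:**
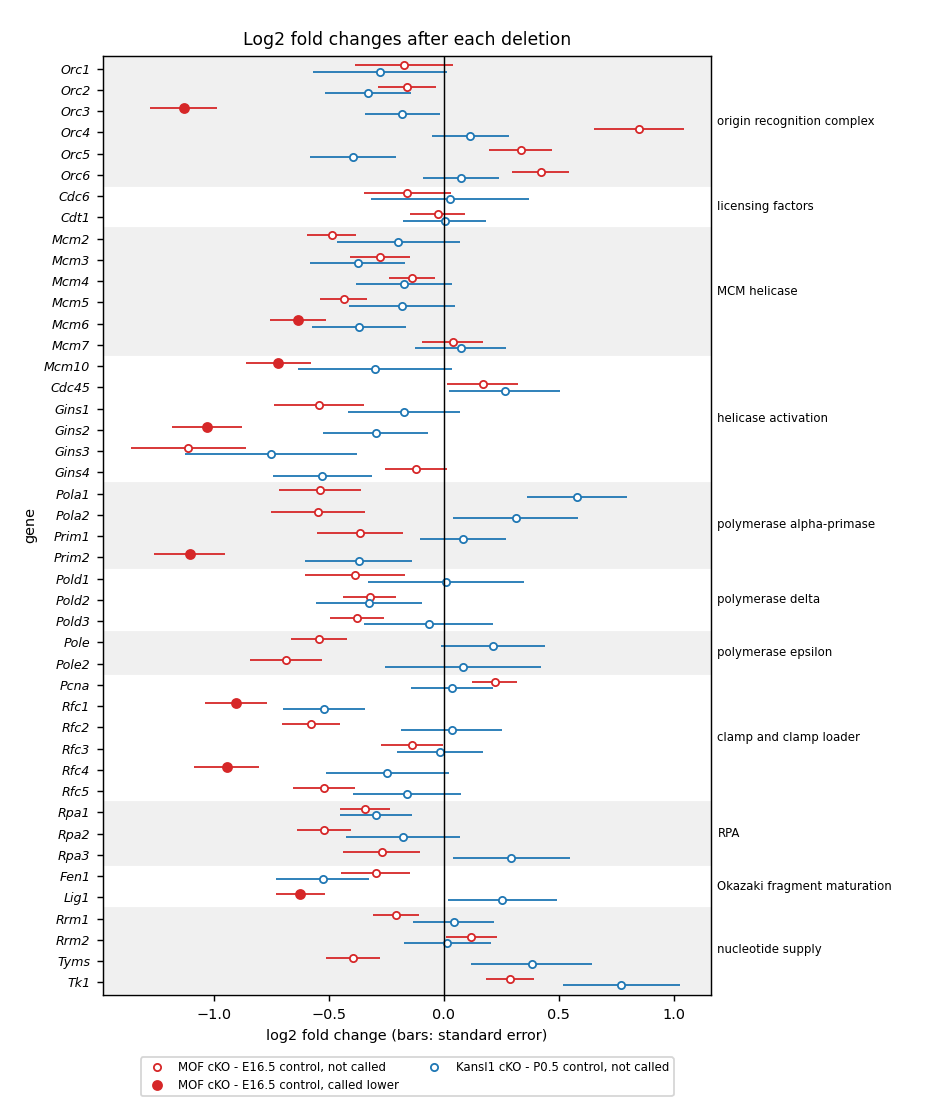
Log2 fold changes of the 44 genes by role group, MOF cKO against E16.5 control in red and Kansl1 cKO against P0.5 control in blue, with standard errors as bars. Filled points are the 8 genes called lower in MOF cKO; 36 red points lie left of 0, and the blue points have wider bars and lie on both sides, from -0.75 (Gins3) to 0.77 (Tk1).

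Loss of Kansl1 gave no call among the 44 genes. With edgeR, 0 were called lower and 0 higher in Kansl1 cKO, where over all 13031 genes tested 0% were called lower and 0% higher. DESeq2 also called 0 and 0 of the 44, against 0.447% and 0.284% of its genes. At an unadjusted p under 0.05, 3 members were lower (Gins4, Rfc1 and Fen1) and 2 were higher (Pola1 and Tk1), where 8.26% of all genes tested were lower and 7.43% higher. In sign 24 were lower and 20 higher, and the median log2 fold change was -0.11 against 0.01 over all genes. This split rested on single libraries: without P0.5 control replicate 2 the median turned to 0.078 with 16 members lower, without Kansl1 cKO replicate 2 to 0.076 with 17 lower, without P0.5 control replicate 1 it was -0.25 with 35 lower, and without Kansl1 cKO replicate 1 -0.38 with 37 lower. Both Kansl1 cKO libraries lay below both controls for 10 members and above both for 2, where 22.7% and 26.0% of all genes tested did. The smallest adjusted p was 0.248. Of 97 genes changed 2-fold in counts simulated with the spread of these libraries, 0% were called by the same edgeR fit. The simulation changed few of its 12838 genes, and the adjusted p depends on that share, so the value holds for that setting only.

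Tk1 had the highest log2 fold change after Kansl1 loss, with 19.8 and 23.9 CPM in the P0.5 controls and 46.0 and 28.8 CPM in Kansl1 cKO. Both Kansl1 cKO libraries were above the controls but far apart from each other (log2 fold change 0.77, SE 0.255, adjusted p = 0.248), and Tk1 was called higher only in the fit without Kansl1 cKO replicate 2. Pola1 was at 20.9 and 29.8 CPM in control and at 41.3 and 34.8 CPM in Kansl1 cKO. These groups did not overlap either (log2 fold change 0.58, SE 0.219, adjusted p = 0.288). Gins3 had the lowest log2 fold change, -0.75 (SE 0.376, adjusted p = 0.383), from 3.67 and 5.69 CPM in control to 3.20 and 2.37 CPM in Kansl1 cKO. Rfc1, called in MOF cKO, was at 50.4 and 50.6 CPM in the P0.5 controls and at 39.6 and 30.7 CPM in Kansl1 cKO. It was lower in both libraries (log2 fold change -0.52, SE 0.18, adjusted p = 0.256). Orc3 was at 39.4 and 41.1 CPM in control and at 33.1 and 38.1 CPM in Kansl1 cKO (log2 fold change -0.18, adjusted p = 0.634). The 10 proliferation markers were all 10 higher in sign, where 48.6% of all genes tested were lower in sign. Their median was 0.62 and 0 were called. Of the 10, 4 were higher at an unadjusted p under 0.05, where 7.43% of all genes tested were. Of the wider lists, 0 genes were called in any.

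The P0.5 libraries differed within their groups in a way the genotypes do not explain. P0.5 control replicate 2 was above replicate 1 in 43 of the 44 genes, and Kansl1 cKO replicate 1 was above replicate 2 in 42. The median coefficient of variation over the 44 was 18.04% in the P0.5 controls and 18.5% in Kansl1 cKO, against 2.99% in the E16.5 controls and 7.06% in MOF cKO. In summed CPM the 44 genes were at 1537 and 1876 in control and at 1832 and 1422 in Kansl1 cKO, so the groups overlapped. The suprabasal markers, genes of cells that have stopped dividing, ran the other way, with 70565 and 38470 CPM in control and 40084 and 67263 CPM in Kansl1 cKO. Macrophage markers summed to 163 and 183 CPM in control and to 231 and 252 CPM in Kansl1 cKO. Melanocyte markers summed to 415 and 448 CPM in control and to 871 and 983 CPM in Kansl1 cKO. In both lists the Kansl1 cKO sums lay above both controls, with 0 markers called. Fibroblast markers summed to 1745 and 1091 CPM in control and to 926 and 738 CPM in Kansl1 cKO. Endothelial markers summed to 5.27 and 2.33 CPM in control and to 1.40 and 1.11 CPM in Kansl1 cKO. In these lists the Kansl1 cKO sums lay below both controls, also with 0 called. The part of suprabasal cells in the spread of the replication genes was not tested.

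**Figure D4:**
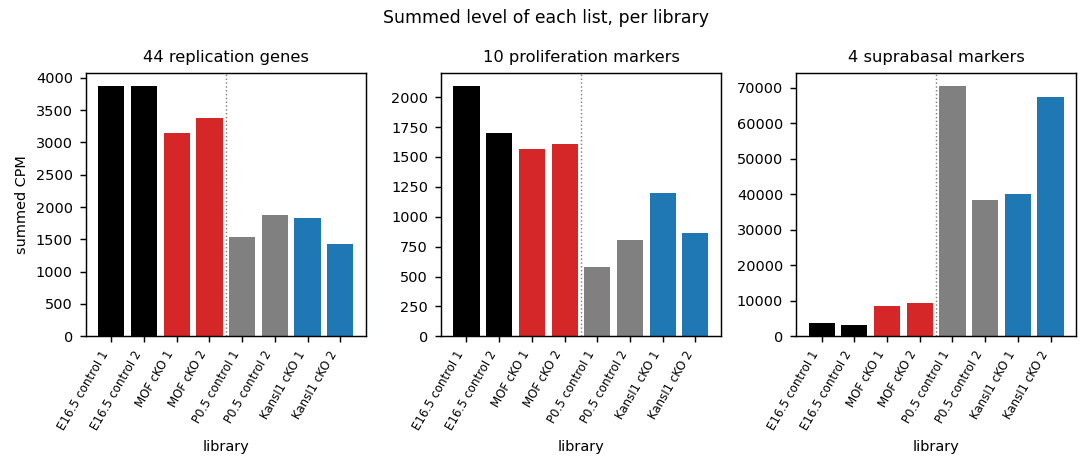
Summed CPM of the 44 replication genes, the 10 proliferation markers and the 4 suprabasal markers in each of the 8 libraries, on separate axes from 0; the dotted line parts the experiments. In the P0.5 libraries the replication genes are highest in control 2 (1876) and Kansl1 cKO 1 (1832), where the suprabasal sums are lowest (38470 and 40084).

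Whether the effects of both deletions differed was tested as the MOF log2 fold change minus the Kansl1 log2 fold change, over all 8 libraries. With edgeR, 0 of the 44 genes were called lower and 0 higher in this difference, against 1.17% and 1.76% of 14565 genes. DESeq2 likewise called 0 and 0, against 3.48% and 6.65%. At an unadjusted p under 0.05, 9 were lower and 2 higher (background 16.4% and 14.8%). The difference was negative for 33 of 44, with a median of -0.33 against -0.07 over all genes. Orc3 came closest, with a difference of -0.98 (SE 0.209, adjusted p = 0.0181). Pola1, which was lower in MOF cKO and higher in Kansl1 cKO in each library, had the lowest difference, -1.15 (SE 0.311, adjusted p = 0.0413). Pola1 is X-linked, and the X-inactivation RNA Xist was high in 1 of the 4 E16.5 libraries and in 3 of the 4 P0.5 libraries. For these genes the design does not separate the deleted gene from stage and isolation, so the sources of a difference cannot be told apart.

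The control groups set the levels of the genes side by side. In the P0.5 controls 27 of the 44 genes were called lower than in the E16.5 controls and 0 higher, where 20.6% of all genes tested were lower and 19.6% higher. DESeq2 called 26 lower and 1 higher, against 17.1% and 22.4% of its genes. At an unadjusted p under 0.05 edgeR gave 35 members lower and 2 higher. Of all 14565 genes tested, 4839 were lower and 4175 (28.7%) higher at that cutoff. The median log2 difference was -0.99 against -0.13 over all genes. Sorted E16.5 cells and P0.5 epidermis differ in stage and isolation, which cannot be told apart, and the suprabasal sums of the controls were 3808 and 3074 CPM against 70565 and 38470 CPM. These differences use the same control libraries as the comparisons above.

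By role, and with no test between roles, all 4 deoxynucleotide enzymes were called lower, with Tk1 at -2.15 (SE 0.218, adjusted p = 5.36e-05) and Tyms at -2.02 (SE 0.222, adjusted p = 8.35e-05). All 3 polymerase delta subunits among the members (Pold1 at -1.92) and both licensing factors (Cdc6 at -1.59, Cdt1 at -0.89) were also called lower. Pold4, a polymerase delta subunit outside the members, was higher in sign at 0.78 (SE 0.318, adjusted p = 0.0600) and was not called. Of the origin recognition complex 0 of 6 were called, and the log2 differences ran from -0.73 (Orc1) to 0.49 (Orc3). Per kilobase of transcript, Pcna had the highest level in both controls, 194 RPKM at E16.5 and 114 RPKM at P0.5. Gins3 had the lowest at E16.5, 3.71 RPKM, while Cdc6 at 1.55 RPKM and Mcm10 at 1.56 RPKM shared the lowest place at P0.5. Without P0.5 control replicate 1, or without E16.5 control replicate 2, the count called lower was 17.

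**Figure D5:**
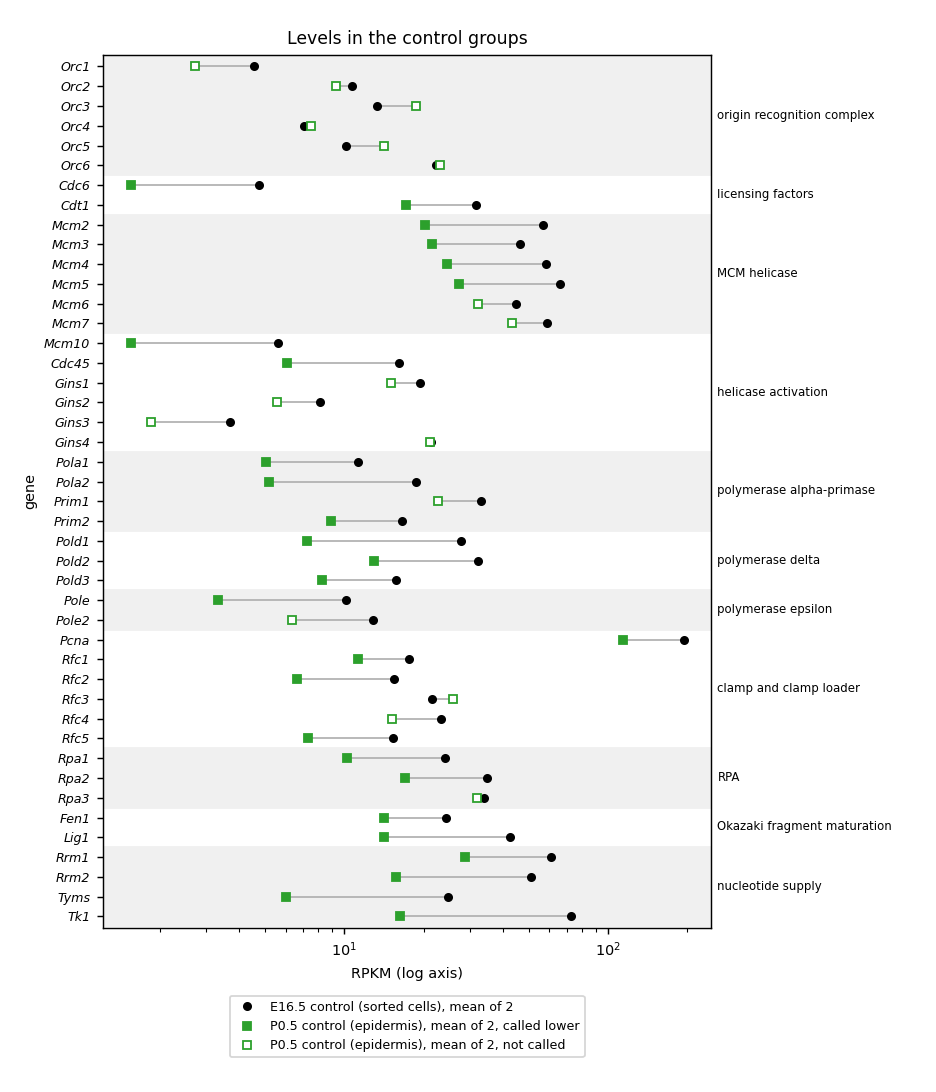
Mean level of each gene per length of transcript (RPKM, log axis, all 8 libraries scaled together) in the E16.5 controls (black) and the P0.5 controls (green, filled where called lower), with 2 libraries each. Green lies left of black for most genes, as for Tk1 (72.4 and 16.3 RPKM), while Orc3 lies right of its E16.5 level (13.4 and 18.8 RPKM) and Orc1 left of it (4.56 and 2.72 RPKM), neither called.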

How the data were processed

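Paired-end reads of polyadenylated RNA were aligned to mm10 by the authors with HISAT2 according to the methods, while the submitters' processing notes name TopHat2. Raw counts of reads on genes, made by the authors with HTSeq-count, were deposited as they were, not normalized. Lines of the tables without a gene, 21.1% to 26.0% of each library, were left out. Groups were taken from the labels, with 2 libraries each. The members and gene lists were chosen with earlier results of these data known.

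The analysis used edgeR 4.0.16 under R 4.3.3 (filterByExpr, TMM, quasi-likelihood test, Benjamini-Hochberg adjustment over all genes tested). Each experiment was fitted alone over 4 libraries, and the difference between effects and the contrast of the control groups over all 8. The thresholds were an adjusted p of 0.01 and a fold of 1.5. Standard errors are the log2 fold change over the root of the F statistic. RPKM is CPM per kilobase of the GENCODE M21 exon union. Alternatives were DESeq2 1.42.0, other scalings, filters and thresholds, the replicate block, one fit over 8 libraries, leaving out each library and, chosen after seeing the data, a crossed pairing. Full values are given for called members and for the member of each role group with the largest change, other members by a value or count; of the wider lists, those called (at most 8 per list) and Mki67, Top2a and E2f1. The fits were tested on simulated data.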

Additional observations from a re-analysis of the deposited data

How the results depend on the processing

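No called member changed direction under any alternative run. Orc3, Gins2, Prim2 and Rfc1 were called in 14 of 14 settings, Rfc4 in 13, Mcm6 in 12, Lig1 in 11 and Mcm10 in 9. The count called lower, 8, was 21 with library size alone, 13 with upper-quartile factors and 4 in one fit over all 8 libraries (Orc3, Gins2, Prim2 and Rfc1). The count called higher, 0, was 1 (Orc4) with DESeq2, with every gene of at least 1 count kept, at an adjusted p under 0.05, in the replicate block and in one fit over all 8 libraries. The causes were not tested. The median of -0.37 was -0.67 with library size alone and -0.44 with upper-quartile factors. Leaving out 1 library, where the lone library is assumed to vary like the others, gave medians between -0.47 and -0.28 and between 0 and 1 called higher.

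For Kansl1 the same fits gave medians between -0.38 (without Kansl1 cKO replicate 1) and 0.078 (without P0.5 control replicate 2) and between 0 and 1 called higher. The median difference between effects was -0.55 with library size alone and between -0.58 and -0.058 in the fits without 1 library, and 2 genes (Orc3 and Pola1) were called lower in it at an adjusted p under 0.05. Between the controls, 1 gene was called higher with DESeq2 and 2 with RLE factors; leaving out 1 library gave between 17 and 27 lower, between 0 and 1 higher and medians between -1.29 and -0.73, and library size alone gave -1.31.

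With the replicate number as a block, 10 members were called lower (Gins3 and Pole2 were added) and 1 higher (Orc4) in MOF cKO, and 0 and 0 in Kansl1 cKO. The study's methods speak of pairs of samples and littermate controls but no source says which libraries form a pair, so the numbers are not read as pairs. Deviations of same-numbered libraries correlated at 0.27 in the E16.5 and at -0.30 in the P0.5 experiment. The crossed pairing of the P0.5 libraries called 0 members lower and 0 higher. With 2 libraries per group, 32.3% of 96 genes changed 2-fold were called in counts simulated for the MOF comparison. That simulation also changed few of its 13635 genes, where the real comparison called 9.59% of genes lower and 10.0% higher. The adjusted p depends on this share, so the value holds for that setting only.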

Other observations

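For 11 neighbours with values that start close to a replication gene on the opposite strand, 4 were called lower in MOF cKO (36.4%, against 9.59% of all genes tested) and 1 higher. The replication genes beside the 4 were not called. Prkdc, the catalytic subunit of the DNA-dependent protein kinase, starts 466 bp from Mcm4 and had a log2 fold change of -1.19 (SE 0.162, adjusted p = 0.0017), with 50.0 and 40.0 CPM in control and 20.8 and 18.6 CPM in MOF cKO, where Mcm4 was at -0.14. Smyd4 starts 109 bp from Rpa1 and was at -1.60 (adjusted p = 0.00362), where Rpa1 was at -0.34. Abhd12 starts 659 bp from Gins1 and was at -0.93 (adjusted p = 0.00815), where Gins1 was at -0.54. Tmem258 starts 155 bp from Fen1 and was at -0.88 (adjusted p = 0.00271), where Fen1 was at -0.30. Vps35, which starts 170 bp from Orc6, was called higher at 0.66 beside 0.42 for Orc6. In the opposite case Rars2, which starts 13 bp from the called gene Orc3, was at -0.25 (adjusted p = 0.257). The other neighbours of the 11 were not called either. Ap4m1 beside Mcm7 was at 0.25, Prpf38a beside Orc1 at -0.39 and Mbd5 beside Orc4 at -0.45. Pxmp2 beside Pole was at -0.68 and Afmid beside Tk1 at 0.36. Ufd1 beside Cdc45, and Umad1 and Gm45062 beside Rpa3, also start close by but have no values here. The difference between a replication gene and its neighbour was not tested.

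Xist, the RNA of the inactive X chromosome, stood at 1518 CPM in the first E16.5 control and at 12.0 CPM or less in the rest of the E16.5 libraries. At P0.5 it was at 1.23 CPM in control replicate 2 and at 371 CPM or more elsewhere. The X-linked member Pola1 was highest of the E16.5 libraries in control replicate 1, at 76.9 CPM against 54.2, 47.3 and 42.9 CPM. The part of sex in the Pola1 difference was not tested.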
